A study of Homo sapiens and Homo sapiens
Mus with 12 samples.

Results

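GLIS3, MLLT3, STK17A and HMGA1 are 4 human genes that were chosen by their RNA level: all 4 were higher after knockdown of CDH11 in cultured UM-UC-3 cells and in UM-UC-3 tumors. UM-UC-3 is an established bladder cancer cell line, and CDH11 is cadherin-11, an adhesion protein of mesenchymal cells. The 4 genes were found by name among 21466 genes analysed for the cultured cells and 26813 human genes listed for the tumors. The same measured values selected them, so their levels against control are given as a description, without a test. Tests are given for what the choice did not use, above all the difference between the hairpins and the values of related genes. The lists of related genes were drawn up with earlier results of these data known.

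The study compared cells with a control hairpin (shCtrl) with cells carrying either of a pair of hairpins against CDH11 (sh#1 and sh#2), which together are called CDH11 KD. Cultured cells gave 3 libraries per group. Tumors grew from the same lines, injected under the skin of 5-week-old nude mice, which lack mature T cells, and 5 tumors per group were sampled after 4 weeks. Each library was made from total RNA and read as single reads of 75 bp. No source used here says whether the 3 cultured libraries of a group came from separate cultures, so p-values there measure the spread between these libraries, which may be technical.

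Counts summed to between 2273182 and 2777019 per cultured library, and to between 414849 and 1248977 on human genes per tumor. CDH11 itself had 2, 4 and 4 counts in shCtrl cells, 0, 0 and 1 with sh#1 and 1, 2 and 0 with sh#2, too few for a fold change. Its tumor level was 16.6 ± 7.65 normalized CPM (SD, n = 5) for shCtrl, 4.99 ± 3.18 (SD, n = 5) with sh#1 and 10.1 ± 5.72 (SD, n = 5) with sh#2. Normalized CPM is the count of a gene relative to its library total after TMM adjustment, on the usual CPM scale. Mouse genes took 10.4% to 14.4% of the counts of shCtrl tumors, 10.4% to 30% with sh#1 and 13% to 18.8% with sh#2, and the value of 30% belongs to sh#1 tumor 1, which also had the fewest human counts. Each group of tumors made up its own sequencing mix (shCtrl mix 1, sh#1 mix 2, sh#2 mix 3), and a difference between mixes cannot be told apart from one between groups.

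The epithelial markers EPCAM, CDH1 and KRT14 were at 0 in all 9 cultured libraries, and 2 of 12 markers of bladder epithelium, KRT8 and KRT18, had at least 10 counts in every library. The summed level of the 12 in culture was 237.8 to 270.6 normalized CPM in shCtrl, 308.3 to 325.1 with sh#1 and 272.4 to 284.2 with sh#2. Of 7 mesenchymal markers, 4 had at least 10 counts in every cultured library. The summed level of all 7 was 2298 to 2456 normalized CPM in shCtrl, 2393 to 2595 with sh#1 and 4093 to 4510 with sh#2. VIM made up most of this sum, at 2140 to 4331 over the 9 libraries, while ZEB1 was at 86.5 to 114.4 and CDH2 at 24.8 to 41.7. In tumors the mesenchymal sum was 2488 to 4102 in shCtrl, 3670 to 4533 with sh#1 and 3203 to 4440 with sh#2. The rise of the mesenchymal sum with sh#2 in culture ran beside the GLIS3 and MLLT3 values given below, and its part in them was not tested.

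GLIS3 encodes a Krüppel-like zinc finger transcription factor of the GLI, GLIS and ZIC group, known for its roles in the pancreas, thyroid and kidney. MLLT3, also called AF9, encodes a YEATS domain protein that reads acylated histones and recruits either the super elongation complex or the histone methyltransferase DOT1L to genes. STK17A, also called DRAK1, encodes a nuclear serine/threonine kinase of the DAPK family and is a known p53 target. HMGA1 encodes an AT-hook protein that bends DNA and competes with linker histone H1 on chromatin, and it is abundant in many tumor cells. The 4 genes are not usually placed in the same pathway, and their products act in the nucleus.

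GLIS3 (ENSG00000107249) lies at chr9:3824127-4348392 on the minus strand of hg38, and MLLT3 (ENSG00000171843) at chr9:20341669-20622499 on the same strand and chromosome arm. STK17A (ENSG00000164543) lies at chr7:43582758-43650713 and HMGA1 (ENSG00000137309) at chr6:34236873-34246231, both on the plus strand. The genes span 524.3, 280.8, 68.0 and 9.4 kb in the order given, with 11, 11, 7 and 6 exons in the canonical transcript. The promoters are shown because the 4 genes rose together in both systems, and a script searched their starts for shared motifs. Each run holds the 250 bases before the start site that RefSeq (GRCh38.p14) lists, read in the direction of the gene, with the GC box GGGCGG or its reverse complement in capitals.
GLIS3: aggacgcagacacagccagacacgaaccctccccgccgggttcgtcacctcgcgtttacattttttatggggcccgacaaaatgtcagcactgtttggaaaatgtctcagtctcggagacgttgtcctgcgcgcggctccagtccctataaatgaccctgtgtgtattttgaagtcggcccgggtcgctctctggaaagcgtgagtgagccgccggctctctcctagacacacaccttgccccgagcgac
MLLT3: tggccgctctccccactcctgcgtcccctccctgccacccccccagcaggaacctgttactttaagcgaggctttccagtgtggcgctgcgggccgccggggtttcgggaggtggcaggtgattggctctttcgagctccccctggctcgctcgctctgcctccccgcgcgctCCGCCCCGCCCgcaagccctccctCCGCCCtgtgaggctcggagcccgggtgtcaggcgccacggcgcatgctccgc
STK17A: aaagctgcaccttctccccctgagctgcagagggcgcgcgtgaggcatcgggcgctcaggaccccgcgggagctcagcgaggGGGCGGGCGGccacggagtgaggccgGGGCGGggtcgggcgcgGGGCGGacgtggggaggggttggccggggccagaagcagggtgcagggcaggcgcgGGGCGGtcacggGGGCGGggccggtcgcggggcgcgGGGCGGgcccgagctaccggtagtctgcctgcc
HMGA1: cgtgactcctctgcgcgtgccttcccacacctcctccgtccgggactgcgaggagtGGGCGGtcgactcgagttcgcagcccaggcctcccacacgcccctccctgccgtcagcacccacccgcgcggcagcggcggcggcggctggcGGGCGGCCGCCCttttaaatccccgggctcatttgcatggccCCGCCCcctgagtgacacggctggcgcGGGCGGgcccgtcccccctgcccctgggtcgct

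These windows cover chr9:4298497-4298746 for GLIS3, chr9:20622500-20622749 for MLLT3, chr7:43582858-43583107 for STK17A and chr6:34236623-34236872 for HMGA1. The GLIS3 start in RefSeq lies 1572 bases from the canonical start of the gene annotation, and RefSeq lists 2 starts each for GLIS3 and HMGA1. GC boxes, searched on both strands, numbered 3 for MLLT3, 7 for STK17A and 5 for HMGA1, and 0 for GLIS3. Of 27305 promoters of the same length, 42.3% held at least 1. GC content was 72.0% for MLLT3, 79.2% for STK17A and 74.8% for HMGA1, against 57.6% for GLIS3 and a median of 58.0% over all promoters. GLIS3 was the member with TATAAA (1 match; 11.1% of all promoters), and MLLT3 the one with CCAAT (1 match; 33.0%). The letters ACGTG or GCGTG, the core of the hypoxia response element, were found once in GLIS3, 2 times each in STK17A and HMGA1 and 0 times in MLLT3, and 43.1% of all promoters held them. No motif of the 4 searched was present in every member.

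In cultured cells every CDH11 KD library was above every shCtrl library for all 4 genes, a pattern that 11.4% of the 9859 genes tested showed. GLIS3 had 39.8, 39.8 and 43.4 normalized CPM in the shCtrl libraries, 54.9, 56.5 and 55.0 with sh#1 and 94.7, 100.3 and 102.8 with sh#2. The 3 groups formed separate steps, with shCtrl lowest and sh#2 highest. MLLT3 had 33.9, 36.1 and 27.8 in shCtrl, 36.5, 45.6 and 47.6 with sh#1 and 78.4, 78.4 and 85.7 with sh#2. Here the lowest sh#1 library was next to the highest shCtrl library, while all sh#2 libraries stood well apart.

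The other two genes had other orders. STK17A had 104.7, 110.3 and 102.1 normalized CPM in shCtrl, 259.9, 242.5 and 242.0 with sh#1 and 191.3, 204.5 and 189.4 with sh#2, so that sh#1 was highest and no groups overlapped. HMGA1 had 1038, 1050 and 987 in shCtrl, 1178, 1291 and 1092 with sh#1 and 1313, 1267 and 1192 with sh#2. Its hairpin groups overlapped each other, and both lay just above shCtrl. Counts behind these values ran from 73 to 211 per library for GLIS3 and MLLT3, from 266 to 687 for STK17A and from 2447 to 3101 for HMGA1.

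**Figure D1:**
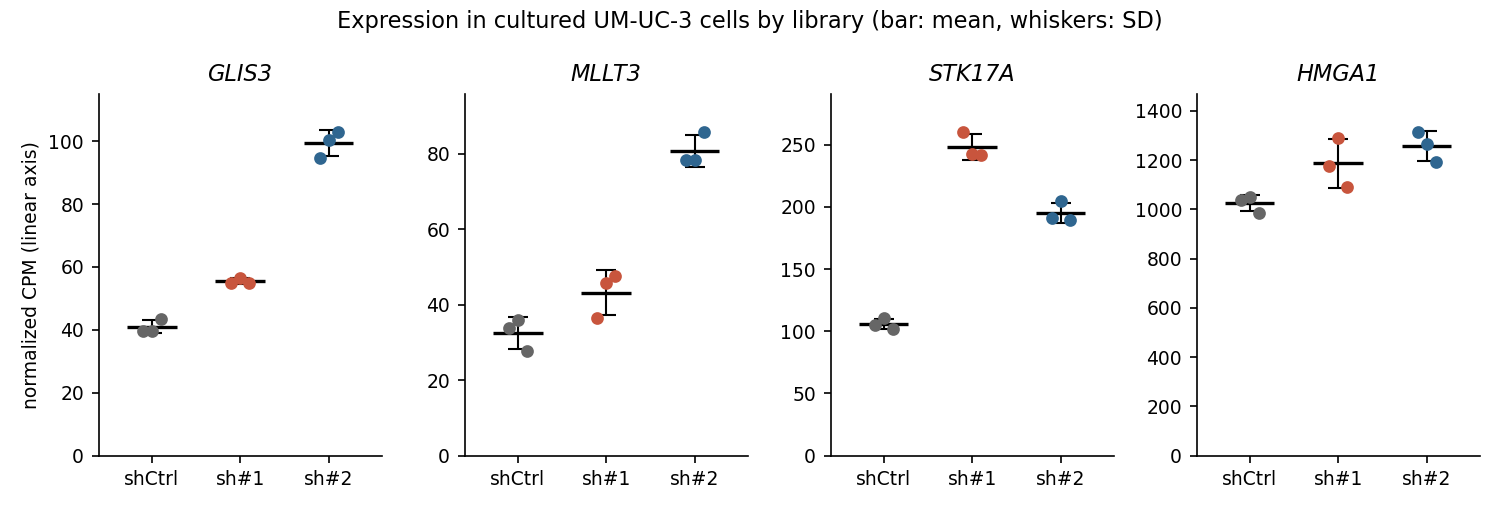
Normalized CPM of the 4 genes in each cultured library, on linear axes from 0, with the mean (bar) and SD (whiskers) of 3 libraries per group. GLIS3 and MLLT3 are highest with sh#2, STK17A is highest with sh#1, and for HMGA1 the hairpin groups overlap.

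As a group, the 6 CDH11 KD libraries averaged 77.4 ± 24.1 (SD, n = 6) normalized CPM for GLIS3 against 41.0 ± 2.12 (SD, n = 3) in shCtrl, a log2 fold change of 0.90 (SE 0.25). The values for MLLT3 were 62.0 ± 21.1 (SD, n = 6) and 32.6 ± 4.28 (SD, n = 3), a log2 fold change of 0.92 (SE 0.28). For these genes most of the spread within CDH11 KD was the gap between the hairpins. STK17A was at 221.6 ± 30.2 (SD, n = 6) against 105.7 ± 4.17 (SD, n = 3), a log2 fold change of 1.07 (SE 0.11), and HMGA1 at 1222 ± 83.4 (SD, n = 6) against 1025 ± 33.4 (SD, n = 3), a log2 fold change of 0.25 (SE 0.09). The change of HMGA1 was a 1.19-fold one, against 1.87, 1.89 and 2.10-fold for GLIS3, MLLT3 and STK17A.

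Because mRNA of tumors comes from all cells of a piece of tissue, more cells that express a gene and more RNA per cell cannot be told apart there. In tumors GLIS3 had 30.5, 32.5, 26.2, 19.6 and 33.7 normalized CPM in shCtrl, 77.7, 53.1, 50.9, 81.6 and 61.6 with sh#1 and 56.9, 39.0, 58.4, 81.1 and 63.0 with sh#2. Every CDH11 KD tumor was above every shCtrl tumor, and the hairpin groups overlapped almost fully. STK17A had 106.7, 71.4, 120.9, 70.3 and 104.2 in shCtrl, 308, 161.6, 132.6, 155.5 and 140.4 with sh#1 and 126.5, 129, 140.8, 155.8 and 149 with sh#2. It too separated all 10 CDH11 KD tumors from shCtrl, a pattern shown by 24 of 9184 human genes tested (0.261%).

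MLLT3 in tumors had 28.1, 40.0, 49.0, 24.9 and 56.7 normalized CPM in shCtrl, 52.7, 45.2, 48.8, 62.0 and 61.6 with sh#1 and 92.4, 80.6, 70.9, 57.6 and 84.0 with sh#2. All 5 sh#2 tumors and 2 of 5 sh#1 tumors exceeded the highest shCtrl tumor, so the sh#1 and shCtrl groups overlapped. HMGA1 had 1469, 1489, 1603, 1382 and 1524 in shCtrl, 2320, 1978, 1890, 1819 and 2265 with sh#1 and 1754, 1505, 1856, 1924 and 1700 with sh#2. All 5 sh#1 tumors and 4 of 5 sh#2 tumors exceeded the highest shCtrl tumor, and sh#2 tumor 2 lay within the shCtrl range.

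**Figure D2:**
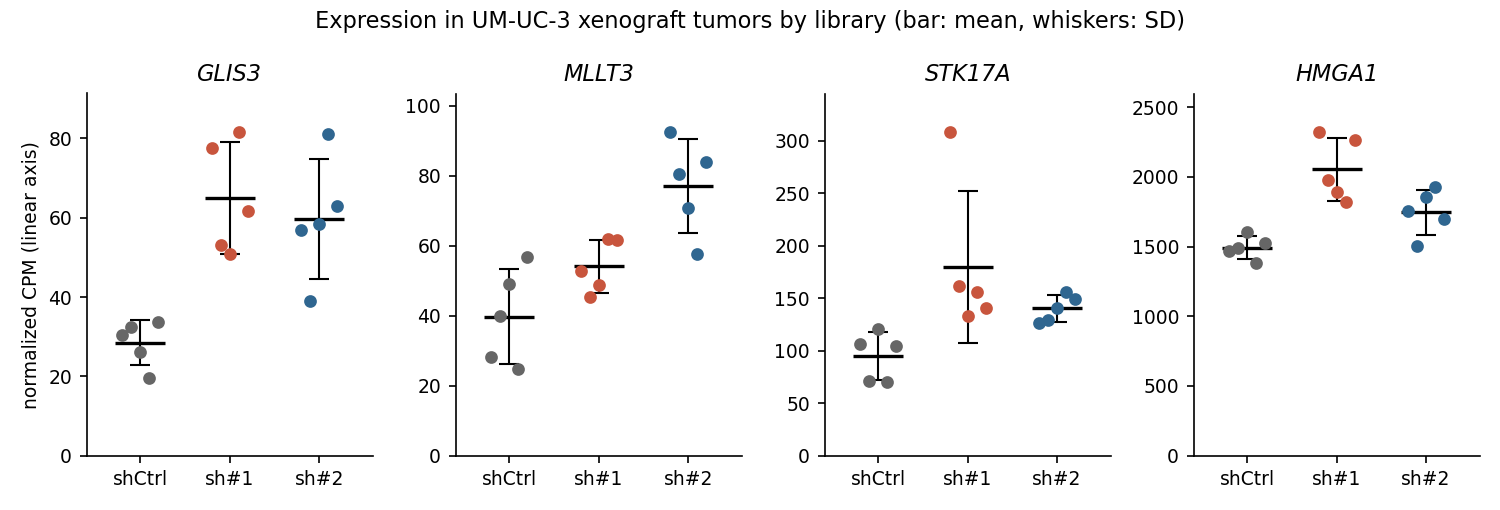
Normalized CPM of the 4 genes in each tumor, on linear axes from 0, with the mean (bar) and SD (whiskers) of 5 tumors per group. GLIS3 and STK17A show no overlap between shCtrl and CDH11 KD, MLLT3 shows overlap of sh#1 with shCtrl, and sh#1 tumor 1 is far above the other tumors for STK17A.

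The means in CDH11 KD and shCtrl tumors were 62.3 ± 14.0 (SD, n = 10) and 28.5 ± 5.74 (SD, n = 5) normalized CPM for GLIS3, a log2 fold change of 1.13 (SE 0.18). They were 65.6 ± 15.9 (SD, n = 10) and 39.8 ± 13.5 (SD, n = 5) for MLLT3, a log2 fold change of 0.76 (SE 0.19). For STK17A they were 159.9 ± 53.4 (SD, n = 10) and 94.7 ± 22.7 (SD, n = 5), a log2 fold change of 0.73 (SE 0.18). HMGA1 was at 1901 ± 245.4 (SD, n = 10) and 1493 ± 80.6 (SD, n = 5), a log2 fold change of 0.35 (SE 0.10). HMGA1 again had the smallest change of the 4, and GLIS3 the largest in tumors, where STK17A had the largest in cultured cells.

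Sh#1 tumor 1, the tumor with 30% mouse counts, held the highest STK17A and HMGA1 levels of all 15 tumors. Without it the log2 fold change of STK17A in CDH11 KD tumors was 0.60 (SE 0.13), that of HMGA1 0.31 (SE 0.09), that of GLIS3 1.11 (SE 0.18) and that of MLLT3 0.78 (SE 0.19). When the mouse/human count ratio of each tumor entered the fit, the values were 0.56 (SE 0.15) for STK17A, 0.32 (SE 0.10) for HMGA1, 1.14 (SE 0.19) for GLIS3 and 0.74 (SE 0.20) for MLLT3. All 4 thus kept a positive value in both. With the ratio in the fit, MLLT3, STK17A and HMGA1 no longer met the tumor limit that chose them, an adjusted p under 0.1. HMGA1 also missed this limit without sh#1 tumor 1, while GLIS3 met it in both.

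The values that chose the members were adjusted p-values of CDH11 KD against shCtrl (edgeR, Benjamini-Hochberg), under 0.05 in cultured cells and under 0.1 in tumors. In cultured cells 9.12% of the genes tested were higher by this limit, and in tumors 0.697%. Both limits were met by 11 of the 8307 genes with a test in each system, the 4 members together with ANXA5, CXCL1, MT-CO1, NR2F2, PPP1R3B, SCAPER and SMS. MLLT3 was just inside the limit in cultured cells, at an adjusted p of 0.0499 in edgeR, and HMGA1 next to it at 0.0481. HMGA1 was also the member nearest the limit in tumors, at an adjusted p of 0.0802 in edgeR. Just outside were PJA2, with 0.0686 in cultured cells, and LACTB, with 0.105 in tumors, in the same edgeR fits.

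The hairpins were next set against each other, a difference that the choice of the genes did not use. In cultured cells 3 of 4 members differed between sh#1 and sh#2, where 24.7% of all genes tested did so at an adjusted p under 0.05. GLIS3 was lower with sh#1 than with sh#2 by a log2 difference of -0.84 (SE 0.11, adjusted p = 1.16e-08 in edgeR's quasi-likelihood test). MLLT3 was lower with sh#1 by a similar difference of -0.90 (SE 0.12, adjusted p = 7.35e-08 in the same edgeR test). STK17A went the other way, higher with sh#1 by 0.35 (SE 0.07, adjusted p = 0.000212 in the same edgeR test). HMGA1 did not pass the test, with a difference of -0.08 and a 95% interval from -0.20 to 0.04 (adjusted p = 0.329 in edgeR).

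In tumors 0 of 4 members passed the test between hairpins, where 1.19% of all genes tested did at an adjusted p under 0.1 (edgeR). MLLT3 and HMGA1 had unadjusted p-values under 0.05 in that fit, as did 913 of all 9184 genes tested. DESeq2 also called 0 of 4. The log2 difference of sh#1 minus sh#2 was 0.09 for GLIS3, with a 95% interval from -0.28 to 0.46. This interval does not reach the -0.84 found in cultured cells, but the cultured and tumor tables were normalized apart and the change between systems was not tested. For MLLT3 the difference was -0.49 (95% interval -0.86 to -0.12, adjusted p = 0.291 in edgeR), again with sh#1 below sh#2. For STK17A it was 0.29 (-0.11 to 0.69) and 0.08 without sh#1 tumor 1, and for HMGA1 0.23 (0.04 to 0.42, adjusted p = 0.365 in edgeR).

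Set beside the shared shCtrl libraries, sh#1 and sh#2 gave log2 fold changes of 0.43 and 1.27 for GLIS3 in cultured cells and of 1.18 and 1.09 in tumors. MLLT3 had 0.41 and 1.31 in cultured cells and 0.50 and 0.99 in tumors. STK17A had 1.23 and 0.88, then 0.86 and 0.57, so its larger value was with sh#1 in both systems. HMGA1 had 0.21 and 0.29 in cultured cells and 0.46 and 0.23 in tumors.

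**Figure D3:**
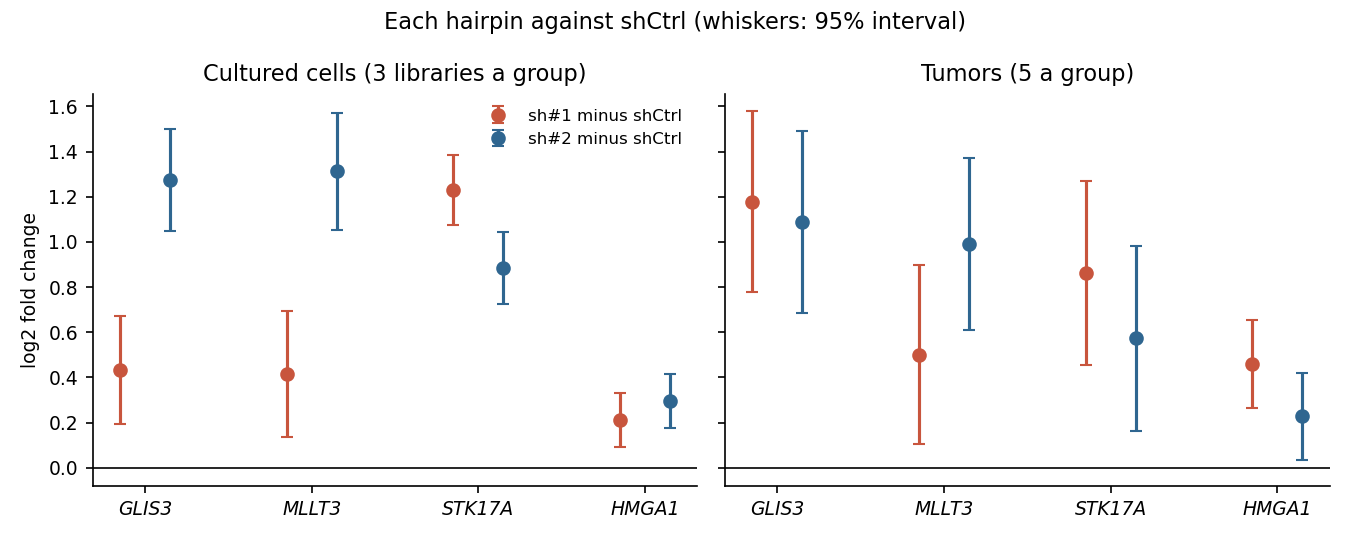
Log2 fold change of each hairpin against shCtrl for the 4 genes, in cultured cells (left) and tumors (right), with 95% intervals from the edgeR fit of 3 groups. Both hairpins use the same shCtrl libraries, and in cultured cells the intervals of sh#1 and sh#2 stand apart for GLIS3 and MLLT3.

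The members were also set against each other across libraries, as a description. Over the 9 cultured libraries the log2 levels of GLIS3 and MLLT3 had a Pearson r of 0.959, and this rested on the groups: once each group mean was subtracted, r was -0.306. Over the 15 tumors the r of the same pair was 0.627, and 0.228 within groups. GLIS3, STK17A and HMGA1 kept a positive relation within the tumor groups, with r of 0.457 (GLIS3 and STK17A), 0.525 (GLIS3 and HMGA1) and 0.561 (STK17A and HMGA1) over 15 tumors. These points share library depth and mouse content, and sh#1 tumor 1 is high for all 3 genes.

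The genes whose levels were most like each member, by the smaller of the r over 9 cultured libraries and over 15 tumors among 8308 genes, were BNC2, PBX3 and HMGA1 for GLIS3, with r of 0.924, 0.902 and 0.778 in culture and 0.795, 0.786 and 0.809 in tumors. For MLLT3 they were PHF3, LPP and NSD3, with 0.929, 0.874 and 0.803 in culture and 0.831, 0.791 and 0.752 in tumors. For STK17A they were PPP1R3B, INSIG2 and UAP1, with 0.909, 0.846 and 0.928 in culture and 0.845, 0.843 and 0.838 in tumors. PPP1R3B is a glycogen-targeting subunit of protein phosphatase 1, INSIG2 a regulator of sterol synthesis, and UAP1 makes UDP-N-acetylglucosamine. For HMGA1 they were SMS, ENO2 and PDE10A, with 0.838, 0.872 and 0.798 in culture and 0.816, 0.815 and 0.811 in tumors. SMS is spermine synthase and ENO2 a glycolytic enolase. PPP1R3B and SMS are also among the 11 genes higher in both systems. These r were taken without subtracting group means, so genes that rose in both systems, as the members did, were favoured in advance.

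Each member has a close paralog, and in cultured cells these had other patterns. GLIS2 averaged 9.07 ± 3.45 normalized CPM (SD, n = 3) with the control hairpin and 9.98 ± 2.92 (SD, n = 6) after knockdown (log2 fold change 0.13, SE 0.29), and GLIS1 had 0 to 3 counts per cultured library. STK17B, also called DRAK2, averaged 11.4 ± 1.77 (SD, n = 3) and 10.95 ± 2.54 (SD, n = 6), a log2 fold change of -0.08 (SE 0.23). Neither passed the test in cultured cells or tumors.

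MLLT1, or ENL, the YEATS domain paralog of MLLT3, had 28.7, 39.0 and 33.2 normalized CPM in shCtrl cells, 32.8, 33.9 and 29.9 with sh#1 and 20.5, 12.0 and 18.5 with sh#2. The sh#2 libraries were the low ones, the group in which MLLT3 was highest. Between hairpins MLLT1 was higher with sh#1 by a log2 difference of 0.91 (SE 0.18, adjusted p = 0.000105 in edgeR), against -0.90 for MLLT3. DOT1L, the histone methyltransferase that both proteins bind, differed in the same direction as MLLT1, by 0.96 (SE 0.20, adjusted p = 0.00018 in edgeR), a gene named after its value was seen. In tumors the hairpin difference of MLLT1 was -0.03 (SE 0.18, adjusted p = 0.979 in edgeR). Its tumor means were 43.7 ± 9.42 normalized CPM (SD, n = 5) for shCtrl and 55.0 ± 10.9 (SD, n = 10) for CDH11 KD, higher in CDH11 KD as for MLLT3. Over 23 alternatives its log2 fold change there ran from 0.24 to 0.45, and it passed the test in 0 of them.

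HMGA2, the paralog of HMGA1, fell in CDH11 KD cells. It had 54.7, 53.3 and 52.2 normalized CPM in shCtrl, 41.0, 37.8 and 33.5 with sh#1 and 41.1, 44.9 and 41.4 with sh#2. All 6 CDH11 KD libraries were below every shCtrl library, the reverse of HMGA1, with a log2 fold change of -0.42 (SE 0.12, adjusted p = 0.0198 in edgeR). The tumor means of HMGA2 were 90.2 ± 15.2 (SD, n = 5) for shCtrl and 118.8 ± 19.2 (SD, n = 10) for both hairpins, a log2 fold change of 0.40 (SE 0.13) that did not pass the test (adjusted p = 0.155 in edgeR). The difference between the systems was not tested.

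**Figure D4:**
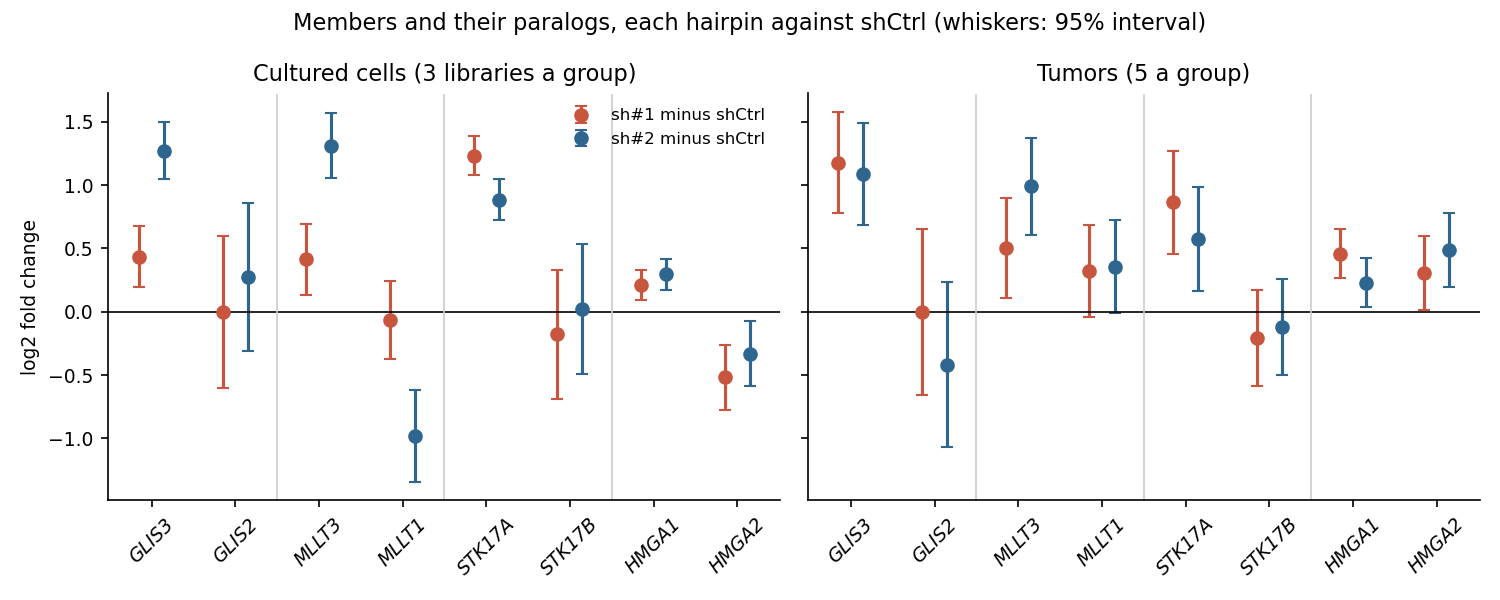
Log2 fold change of each hairpin against shCtrl for every member beside its paralog, in cultured cells (left) and tumors (right), with 95% intervals. In cultured cells MLLT1 is low with sh#2 and HMGA2 with both hairpins, while MLLT3 and HMGA1 are high.

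Lists of genes related to the members in function held 73 genes, of which 54 were tested in cultured cells. There 6 rose and 10 fell in CDH11 KD, which is 29.6% of those tested beside 17.4% of all genes tested. The median log2 fold change was 0.03 beside 0.00 for all genes. The lists were chosen with earlier results of these data known, so the 29.6% and the 17.4% are not an independent comparison. In tumors 0 of 54 passed the test, where 1.51% of all human genes tested did. An unadjusted p under 0.05 in edgeR was found for 9 of the 54 and for 1164 of all 9184 human genes tested. DESeq2 called 6 related genes higher and 9 lower in cultured cells, and 0 in tumors.

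Of 7 GLI, GLIS and ZIC family and hedgehog pathway genes tested, 0 rose and 1 fell. GLI3, mainly a repressor of hedgehog targets, had 12.1 ± 2.94 normalized CPM (SD, n = 3) in shCtrl and fell to 4.30 ± 1.53 (SD, n = 6), with a log2 value of -1.47 (SE 0.29, adjusted p = 0.002 in edgeR). Both hairpins had similar values, -1.51 with sh#1 and -1.43 with sh#2. In tumors GLI3 stood at -0.18 (SE 0.29, adjusted p = 0.839 in edgeR).

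Of 19 genes of the super elongation and DOT1L complexes and their partners, 3 rose and 2 fell. YEATS2, a YEATS domain reader like MLLT3, rose by 1.16 on the log2 scale (SE 0.27, adjusted p = 0.0174 in edgeR), from 42.3 to 55.5 normalized CPM in shCtrl to 75.6 to 88.4 with sh#1 and 140.4 to 150 with sh#2. It differed between hairpins by -0.84 (adjusted p = 8.3e-10 in edgeR), in the same direction as MLLT3. CDC73 of the PAF1 complex (0.56) and the ELL partner EAF1 (0.59) also rose, while the DOT1L partner MLLT6 (-0.61) and HEXIM1 (-0.62), which holds the elongation kinase P-TEFb inactive, fell.

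Of 16 genes of the DAPK family and of the p53 response, 2 rose and 4 fell. SESN2, a stress-induced inhibitor of mTORC1, had 25.8 ± 1.59 normalized CPM (SD, n = 3) in shCtrl and rose to 104.6 ± 26.1 (SD, n = 6), with a log2 value of 2.02 (SE 0.21, adjusted p = 1.96e-05 in edgeR). CDKN1A, which encodes the cell cycle inhibitor p21, rose by 0.85 (SE 0.13, adjusted p = 0.000367 in edgeR). The p53 targets ZMAT3 (-1.24), MDM2 (-0.68), AEN (-0.80) and XPC (-0.59) fell. The listed p53 targets therefore moved in both directions in the cells in which STK17A was high.

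Of 12 high mobility group proteins and linker histones (the list also held LIN28B), 1 rose and 3 fell. The linker histone H1-10 (0.27, SE 0.09) rose, and HMGN3 (-0.62), HMGB3 (-0.34) and HMGA2 fell. H1-4 had the largest value of all related genes, 2.44, but its libraries were at 1.23 to 5.12 normalized CPM in shCtrl, 5.22 to 6.97 with sh#1 and 22.4 to 29.6 with sh#2, and it did not pass the test of both hairpins together (adjusted p = 0.101 in edgeR). H1-4 is named because of its value, and DESeq2 called it higher.

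**Figure D5:**
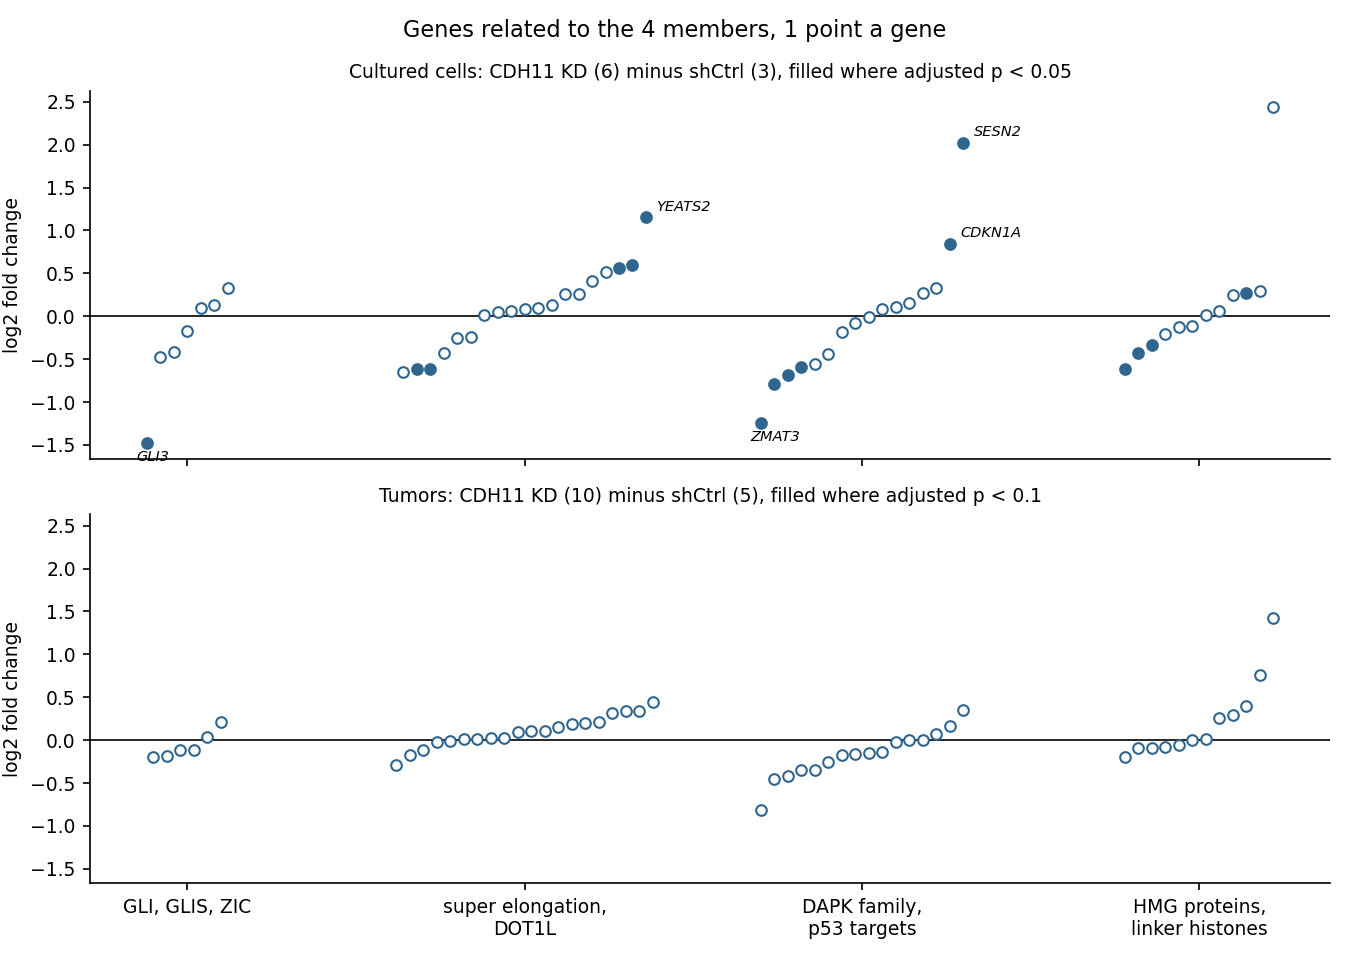
Log2 fold change of CDH11 KD against shCtrl for each tested gene reported from the 4 related lists, sorted within a list, in cultured cells (top) and tumors (bottom), with filled points where the edgeR test was passed. In cultured cells filled points lie on both sides of 0, from GLI3 at -1.47 to SESN2 at 2.02, and in tumors no point is filled. The open point at 2.44 is H1-4.

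Reads of overlapping or copied genes could add to a member's count, and COA1, GLIS3-AS1 and the HMGA1 pseudogenes were looked at in turn. Other overlapping genes were not looked at, such as GLIS3-AS2 at GLIS3, RPL7AP48 and RNU4-26P at MLLT3 and MIR6835 at HMGA1. COA1 overlaps STK17A on the opposite strand, and its log2 fold change was 0.02 (SE 0.12) in cultured cells and 0.00 (SE 0.14) in tumors, with 47.0 ± 7.18 (SD, n = 3) normalized CPM in shCtrl cells and 47.9 ± 1.99 (SD, n = 6) across CDH11 KD cells. The antisense RNA GLIS3-AS1 had 1 count over all 15 tumors. HMGA1 has 8 annotated pseudogenes, of which HMGA1P3 was listed in the tumor table with 2 counts in all, so reads shared with the others would not be visible as their own rows and the HMGA1 level is uncertain to that extent.

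The genes within 5 Mb of each member were compared with it. Around MLLT3, 4 of 10 genes tested in cultured cells rose (RRAGA, HAUS6, PLIN2 and RPS6) and 1 fell (KLHL9), with a median log2 fold change of 0.39, where 17.4% of all genes passed in either direction. Between hairpins 6 of these 10 were lower with sh#1, as MLLT3 was: PSIP1, BNC2, RRAGA, PLIN2, DENND4C and RPS6, with a median of -0.47, where 24.7% of all genes differed in either direction. In tumors 0 of 11 genes of this window differed between hairpins (median 0.06), and 1 of 11, BNC2, was higher in CDH11 KD (median 0.19). These names were given after their values were seen. Around GLIS3, on the same arm, 2 of 20 rose and 1 fell in cultured cells, with a median of -0.06. In tumors 0 of 17 genes of the GLIS3 window passed the test, with a median of 0.36 beside 0.01 for all genes tested. Over the short arm of chromosome 9 the median was 0.02 for 103 genes in cultured cells and 0.12 for 91 genes in tumors. Between hairpins in cultured cells, 26 of the 103 were lower and 11 higher with sh#1 (median -0.13). Around STK17A and HMGA1 the medians in cultured cells were -0.09 over 33 genes and 0.03 over 114 genes, and in tumors -0.07 over 30 and -0.02 over 97. In cultured cells 3 of the 33 genes near STK17A rose (INHBA, IGFBP3 and UPP1) and 2 fell (GLI3 and URGCP). Of the 114 near HMGA1, 10 rose and 6 fell, where 17.4% of all genes passed in either direction. In tumors 1 of 30 near STK17A, POLM, fell and 0 of 97 near HMGA1 passed, where 1.51% of all genes did. The genes near STK17A, too, were named after their values were seen.

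Mouse cells of the tumors can also express counterparts of the members and their paralogs. Mouse Glis3 had 0 to 7 counts per tumor, Mllt3 4 to 14 and Hmga1b 0 to 2, and Stk17b, the counterpart of the paralog STK17B, had 1 to 10, against 22 to 76 human GLIS3 counts and 19 to 74 human MLLT3 counts. Of 9 mouse genes looked for, 8 were listed and 0 passed the low-count filter. The gene not listed was Hmga1, so the direct mouse counterpart of HMGA1 has no value here. Tested without the filter, 0 of 8 passed, also at an unadjusted p under 0.05 (edgeR), and at 0 to 14 counts per tumor the depth limits what could be detected. The summed level of 6 mouse fibroblast markers ranged from 7074 to 20080 mouse CPM in shCtrl, from 2311 to 12470 with sh#1 and from 7681 to 23300 with sh#2. Those of 5 myeloid markers ranged from 2012 to 5023, from 1951 to 3153 and from 2341 to 5212, of 5 endothelial markers from 201.2 to 405.2, from 192.7 to 368.5 and from 301.3 to 492.7, and of 3 listed keratinocyte markers from 0 to 185.8, from 0 to 10.8 and from 0 to 12.3. Their part in the human values was not tested.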

How the data were processed

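RNA-seq counts of 9 cultured UM-UC-3 libraries and 15 xenograft tumors were analysed. The values are read counts for each gene as the authors deposited them, without normalization, and the tumors have a human and a mouse table. Per the paper's methods, reads of cultured cells were trimmed in CLC Genomics Workbench and mapped to hg38 with RaNAseq, and reads of tumors were trimmed with Trim Galore and mapped to hg38. How reads were counted, with or without strand, and how human and mouse reads were separated is not given in the sources used here. Of 21479 rows for cultured cells, 13 hold no gene name and were left out.

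The counts were filtered with filterByExpr, scaled by TMM and fitted by the robust quasi-likelihood method of edgeR (version 4.0.16, R version 4.3.3). Adjusted p-values are Benjamini-Hochberg values over all genes tested, and the study's limits of 0.05 (culture) and 0.1 (tumors) were kept. For its enrichment analysis of cultured cells the paper also required a log2 fold change beyond 1 in either direction, and that limit was not used. CDH11 KD was fitted as 1 group of both hairpins, and fits of 3 groups gave each hairpin and their difference. Normalized CPM had 0.5 added before logarithms. Named were the members, their closest paralogs, some of the genes overlapping them, every related gene reported here that passed the threshold and the 3 genes most alike each member. A gene of the related lists is not reported here. The members and lists were chosen with earlier results of these data known. As alternatives, DESeq2 (version 1.42.0) or upper quartile scaling was used, the filter was dropped or set to 10 counts per library, single libraries were left out, replicate numbers were blocked, the groups in the fit were changed, the mouse ratio was a covariate, or HMGA1 pseudogenes were summed with HMGA1. The fits were tested on simulated counts. Gene positions are from GENCODE on hg38. All replicate pairs differed beyond sampling noise. Totals as low as 414849 counts limit the precision of single tumors.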

Additional observations from a re-analysis of the deposited data

Results flagged for a closer look

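The 4 members, the human total and the mouse share were examined for outlying tumors in each of the 3 groups of 5. Of these 18 checks 2 found a tumor that stood apart, both times sh#1 tumor 1. Chance gives about 1 in 20 per check. Checks on the same tumors are not independent, so the 2 cannot be weighed against that rate. Sh#1 tumor 1 had 308 normalized CPM of STK17A, and the other sh#1 tumors had 132.6 to 161.6. The human total of the same tumor was 414849 counts, against 895180 to 1011977 in the others, so 111 counts stand behind its STK17A value.

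In cultured cells the rise of 3 members differed between the hairpins. The difference of sh#1 minus sh#2 on the log2 scale was -0.84 for GLIS3, -0.90 for MLLT3 and 0.35 for STK17A (edgeR, 3 libraries each). All 3 calls held in 15 of 15 alternatives, with values from -0.87 to -0.82 for GLIS3, from -0.98 to -0.79 for MLLT3 and from 0.31 to 0.38 for STK17A.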

How the results depend on the processing

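Every alternative kept all 4 members above shCtrl in both systems, with log2 fold changes in cultured cells from 0.81 to 0.99 for GLIS3, from 0.80 to 1.03 for MLLT3, from 1.02 to 1.11 for STK17A and from 0.22 to 0.28 for HMGA1. In tumors they ran from 1.01 to 1.19, from 0.62 to 0.89, from 0.56 to 0.83 and from 0.31 to 0.38. The GLIS3 values in culture moved with the library left out, from 0.81 without sh#2 replicate 3 to 0.99 without sh#1 replicate 3. The thresholds that chose the members were held together with the direction in 10, 6, 15 and 4 of 15 alternatives in cultured cells and in 23, 19, 19 and 11 of 23 in tumors, in the same order. The hairpin calls gave 3 of 4 members in cultured cells and 0 of 4 in tumors under every alternative.

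The related genes called in cultured cells depended on the shCtrl libraries, from 2 to 7 higher and from 3 to 11 lower when 1 library was left out. Without shCtrl replicate 1 there were 4 and 4, without shCtrl replicate 2 there were 2 and 3, without shCtrl replicate 3 there were 3 and 4, and without sh#2 replicate 3 there were 6 and 6. With the replicate number as a block they were 4 and 6, and with 3 groups in the fit 9 and 15. Replicate numbers did not pair the libraries (correlations of same-numbered deviations from -0.00432 to 0.0537 in cultured cells and from -0.0871 to 0.112 in tumors), and the block changed no count of members that differed between hairpins. Among the limits that chose the members, the block lost GLIS3, MLLT3 and HMGA1 in cultured cells and HMGA1 in tumors. GLI3, SESN2, ZMAT3 and CDKN1A were called in all alternatives that tested them, and HMGA2 in 12 of 15. The others were called in 14 (MLLT6), 13 (CDC73, HMGN3 and MDM2), 12 (YEATS2), 11 (EAF1), 9 (XPC, HEXIM1 and HMGB3) and 5 (H1-10) of 15 and in 7 of 14 (AEN).

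In tumors, leaving out 1 library gave from 0 to 2 related genes higher and from 0 to 2 lower. Without shCtrl replicate 5, HMGA2 and MLLT10 were called higher and BBC3 and CDKN1A lower. For HMGA2 and CDKN1A this is the reverse of their direction in cultured cells. ELL2 was called higher without shCtrl replicate 3, and BBC3 lower without sh#1 replicate 4 or sh#2 replicate 5. BBC3 was also called lower without the filter (1 gene) and with 3 groups (1 gene). Values near 0 changed sign when 1 library was left out: GLIS3 sh#1 against sh#2 in tumors (from -0.030 to 0.25), GLIS2 against shCtrl (from -0.15 to 0.34 in culture and from -0.37 to 0.011 in tumors), STK17B against shCtrl in culture (from -0.17 to 0.054) and between hairpins (from -0.41 to 0.052 in culture and from -0.21 to 0.012 in tumors), and MLLT1 between hairpins in tumors (from -0.15 to 0.11). The cause was not tested. Summing HMGA1 pseudogenes could not be run for cultured cells, where none is listed. The numbers of counts limit GLIS1 and the mouse counterparts most.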
